A study of Mus musculus with 9 samples.

Results

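The 30 genes described here make cholesterol, sense it, and move or store it. They were chosen by name, with earlier results of these data known. They cover 8 enzymes from the acetyl-CoA step to squalene and 10 enzymes from squalene to cholesterol. The others are 5 sterol sensing proteins and 7 genes of sterol transport, storage and oxysterol reception. All 30 were found among the 52636 genes of the deposited count table, and all 30 passed the filter on low counts that left 39210 genes for testing.

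The cells came from the nucleus accumbens, the ventral part of the striatum, of male C57BL/6 mice, and were sorted by fluorescent antibody staining for ChAT, which synthesizes acetylcholine. SUS and RES mice self-administered cocaine, first on a fixed ratio 1 schedule of at most 40 infusions and then in 10 daily progressive ratio sessions of 23 h at 1.2 mg/kg per infusion, with tissue collected 3 days after these ended. Naive mice had no cocaine, and their libraries are titled WT1 to WT3. Each group has 3 libraries. Every group went through perfusion with saline and papain dissociation, and 2 to 3 mice were pooled per condition. No genetic change and no age is given in the labels used here. Whether replicate libraries had pools of their own is not stated, and a p-value here therefore reflects library-to-library spread, which may be technical. The behavioral phenotype field gives RES as susceptible and SUS as resilient, against the sample titles. The names SUS and RES here are those of the titles, and no behavioral meaning is given to them.

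Cells build cholesterol from acetyl-CoA through mevalonate, farnesyl diphosphate, squalene and lanosterol. When sterol in the endoplasmic reticulum is low, SCAP carries the precursors of the SREBP transcription factors to the Golgi for cleavage, and the released factors raise transcription of the pathway's enzymes. When sterol is plentiful, INSIG proteins hold SCAP back, and oxysterols activate the liver X receptors, which raise transcription of the exporters Abca1 and Abcg1. The brain makes its own cholesterol because plasma lipoproteins do not cross the blood-brain barrier, and astrocytes and oligodendrocytes are known as major producers.

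The promoters are shown because SREBP-controlled genes are known to carry a sterol regulatory element close to binding sites of NF-Y, a general factor that acts with SREBPs. RefSeq windows of 250 bases before the annotated start (build GRCm38.p6) were on hand for 25 of the 30 genes, in 34 windows. Abcg1, Npc1, Fdft1, Fdps and Sqle were not in that table. Each of the 6 sequences reads 5′ to 3′ on the gene's strand and ends before the gene's own model in GENCODE release 21. This cut took 40 bases from Npc2, with a CCAAT match at 6 bases before the start, and 49 bases from Insig1. The motif counts and the plot of matches use the full windows of 250 bases. Npc2, Nr1h2 and Mvd had the smallest p between SUS and RES among genes in the table, Hmgcs1 held the sterol element, Insig1 is a sterol sensor, and Abca1 had the highest level. Capitals mark matches to the sterol element TCACNCCAC or to the NF-Y motif CCAAT, on either strand.
Npc2, chr12:84773153-84773362, minus strand: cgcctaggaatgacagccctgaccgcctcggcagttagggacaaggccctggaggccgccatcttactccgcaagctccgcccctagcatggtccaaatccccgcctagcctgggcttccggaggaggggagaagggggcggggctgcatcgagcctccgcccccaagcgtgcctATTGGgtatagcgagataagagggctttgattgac
Nr1h2, chr7:44553966-44554215, minus strand: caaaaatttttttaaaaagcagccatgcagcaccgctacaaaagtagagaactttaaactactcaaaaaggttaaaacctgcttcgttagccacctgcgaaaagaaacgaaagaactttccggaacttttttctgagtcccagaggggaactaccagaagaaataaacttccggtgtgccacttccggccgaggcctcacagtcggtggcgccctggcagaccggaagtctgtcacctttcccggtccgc
Mvd, chr8:122443423-122443672, minus strand: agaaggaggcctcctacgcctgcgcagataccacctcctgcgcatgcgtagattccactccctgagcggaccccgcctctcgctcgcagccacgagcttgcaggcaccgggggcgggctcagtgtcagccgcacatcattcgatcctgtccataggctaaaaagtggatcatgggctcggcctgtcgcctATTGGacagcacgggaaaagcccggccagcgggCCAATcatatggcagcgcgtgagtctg
Hmgcs1, chr13:119690101-119690350, plus strand: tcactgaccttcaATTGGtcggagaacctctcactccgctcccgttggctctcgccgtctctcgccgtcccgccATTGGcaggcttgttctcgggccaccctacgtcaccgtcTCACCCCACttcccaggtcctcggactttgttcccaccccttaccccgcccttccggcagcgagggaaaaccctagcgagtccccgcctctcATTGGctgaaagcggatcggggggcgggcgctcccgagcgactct
Insig1, chr5:28071162-28071362, plus strand: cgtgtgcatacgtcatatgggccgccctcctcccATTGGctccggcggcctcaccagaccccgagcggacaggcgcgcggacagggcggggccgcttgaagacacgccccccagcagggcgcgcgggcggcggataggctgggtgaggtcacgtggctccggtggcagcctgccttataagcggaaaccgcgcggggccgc
Abca1, chr4:53159896-53160145, minus strand: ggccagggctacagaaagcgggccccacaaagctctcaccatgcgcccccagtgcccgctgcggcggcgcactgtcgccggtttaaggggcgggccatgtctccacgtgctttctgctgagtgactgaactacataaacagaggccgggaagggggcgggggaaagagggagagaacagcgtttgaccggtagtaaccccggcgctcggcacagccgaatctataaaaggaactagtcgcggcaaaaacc

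The sterol element occurred in 1 of the 34 windows of these genes (2.94%), that of Hmgcs1, at 137 bases before the start, beside 1.05% of all 32851 windows. CCAAT occurred in 21 of the 34 windows (61.8%), in 20 of the 25 genes, beside 33.8% of all windows. The oxysterol receptor motif, the direct repeat DR4 with its 2 copies of AGGTCA 4 bases apart, occurred in 0 of the 34 windows and in 0.0152% of all windows. The printed windows of Nr1h2 and Abca1 held no match to any of the 3 motifs. The motifs do not overlap each other in the printed windows. These are letter matches in short windows and say nothing of whether a factor was bound.

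**Figure D1:**
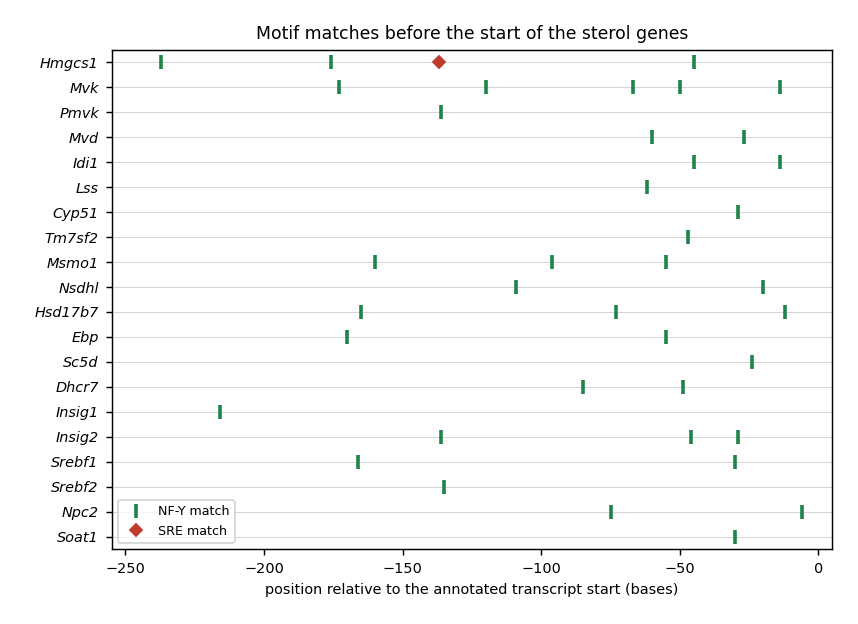
Matches to CCAAT (green bars) and to the sterol element (red diamond) in the 250 bases before each RefSeq start, drawn by distance in bases from the start, for the 20 sterol genes with a match; genes with several starts have their matches on one line. Only Hmgcs1 has a sterol element match, at 137 bases before the start.

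Total counts were 11155730, 8626317 and 8081639 in SUS libraries, 6895457, 4574518 and 4913649 in RES libraries, and 6930527, 4471675 and 10667056 in naive libraries. Mitochondrial genes took 9.09% to 28.7% of counts. Values for one gene across libraries are counts relative to library size (CPM), scaled by TMM, the trimmed mean of M values. The TMM factor was largest for RES replicate 3 at 1.575 and smallest for naive replicate 2 at 0.744. Levels compared between genes are counts per kb of exon, divided by a floor, which is the same density over 1134 olfactory receptor genes, a family that brain cells are not known to use widely. The floor was 6.07 to 21.2 counts per kb. The labelled cell type was checked first. None of the 8 cholinergic markers averaged above 3 times the floor. Chat averaged 2.32 times the floor, from 0.877 to 7.86, Slc18a3, the vesicular acetylcholine transporter, 0.857 times and Slc5a7, the choline transporter, 1.08 times. The 14 microglial markers all averaged above 3 times the floor. Their summed CPM was 3721, 259.5 and 5112 in SUS libraries, 1549.6, 148.8 and 205 in RES libraries, and 1647, 2912 and 302 in naive libraries. SUS replicates 3 and 1 and naive replicate 2 were therefore the richest in microglial transcripts. The 10 astrocyte markers summed to 2061, 1446 and 1564 CPM in SUS libraries, 1728, 3883 and 769.9 in RES libraries, and 1209, 1787 and 3748 in naive libraries. Microglial sums differed several-fold within each group and astrocyte sums within the RES and naive groups, and in bulk samples fewer cells of a type and less RNA per cell cannot be told apart.

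Of the 30 sterol genes, 10 (33.3%) averaged above 3 times the floor, beside 5757 of 21883 protein-coding nuclear genes (26.3%). Abca1 stood highest at 11.2 times the floor, followed by the transcription factor genes Srebf2 at 5.24 and Srebf1 at 5.15. Next came Insig1 at 3.77, Nr1h2 at 3.69, Fdft1 at 3.49, Msmo1 at 3.48, Npc2 and Pmvk both at 3.38 and Npc1 at 3.37. Mvd at 2.84, Abcg1 at 2.82 and Sqle at 2.81 lay just under the limit. The lowest were Fdps at 0.559, Idi1 at 1.24 and Tm7sf2 at 1.46. By role, the median level was 2.62 times the floor for the early enzymes, 1.90 for the late enzymes, 3.77 for the sensing genes and 3.37 for the transport genes. Counts of single genes in single libraries ran from 17 to 3443, and none was 0.

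**Figure D2:**
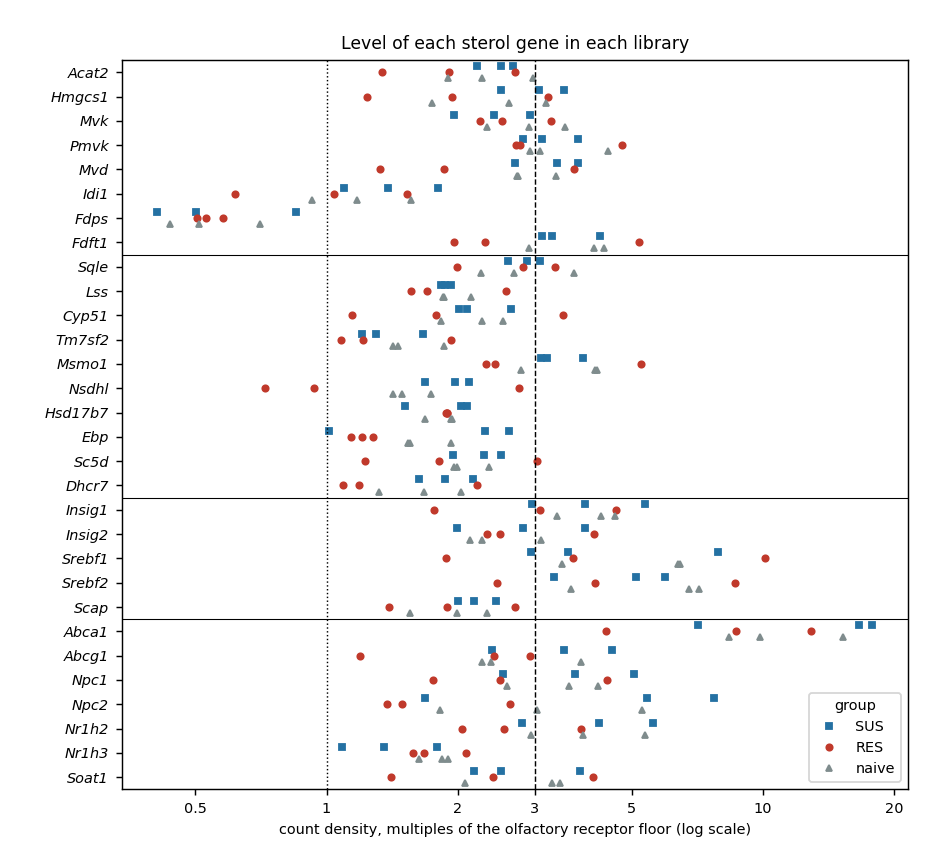
Count density of each sterol gene in each of the 9 libraries, as multiples of the olfactory receptor floor (log scale), grouped by role from early enzymes at the top to transport genes at the bottom; the dotted line is the floor and the dashed line 3 times the floor. Abca1 averages 11.2 times the floor and Fdps 0.559 times.

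The genes also differed in how much they varied. The coefficient of variation of CPM over the 9 libraries had a median of 23.1% for the sterol genes and 28.7% for all genes tested. Lss, which closes the sterol rings, varied least at 9.14%, followed by the mevalonate kinase gene Mvk at 11.0% and Sqle, the squalene epoxidase gene, at 12.0%. Their mean levels were 1.92, 2.68 and 2.81 times the floor, all under 3, and the part of background counts in this low variation was not tested. Npc2 varied most at 69.8%, with a highest library 7.35 times its lowest, ahead of Srebf1 at 43.5% and Abca1 at 41.6%. RES replicate 3 was the lowest library for 18 of the 30 genes (60.0%), beside 18.4% of all genes tested and 39.6% of the 9370 tested genes above 3 times the floor. Among the 10 sterol genes above 3 times the floor it was the lowest for 8. The same library had the largest scaling factor and the lowest astrocyte marker sum, and the part of these in its low values was not tested. The highest library was SUS replicate 3 for 9 genes (30.0%, beside 24.8% of all genes tested), RES replicate 2 for 8 (26.7%, beside 13.5%) and SUS replicate 1 for 7 (23.3%, beside 6.76%).

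Among the enzymes up to squalene, Hmgcs1 joins acetyl-CoA and acetoacetyl-CoA to HMG-CoA. It had 27.3, 22.8 and 36.2 CPM in SUS libraries, 19.5, 25.2 and 12.9 CPM in RES libraries, and 17.4, 21.9 and 28.5 CPM in naive libraries. The SUS values lay mostly above the RES values, with RES replicate 2 inside the SUS range. Mvd, which decarboxylates mevalonate diphosphate, had 13.6, 9.91 and 14.1 CPM in SUS libraries, 5.40, 11.7 and 7.88 CPM in RES libraries, and 11.0, 9.32 and 12.1 CPM in naive libraries. RES replicates 1 and 3 were the 2 lowest libraries for Mvd, and RES replicate 2 overlapped both other groups. Mvk, the first kinase of mevalonate, had 15.2, 12.8 and 11.8 CPM in SUS libraries, 14.8, 14.9 and 13.7 CPM in RES libraries, and 13.5, 17.1 and 15.2 CPM in naive libraries, and all 3 groups overlapped. The other 5 were the thiolase gene Acat2 at 7.75 to 15.3 CPM, the second kinase gene Pmvk at 10.3 to 13.9, the isomerase gene Idi1 at 4.91 to 14.2, the farnesyl diphosphate synthase gene Fdps at 3.34 to 8.06 and the squalene synthase gene Fdft1 at 18.9 to 37.6. Several of these share sequence with other genes. Of the 50-base stretches in the longest transcript, 86.4% for Fdps, 45.9% for Acat2, 21.3% for Idi1 and 10.9% for Fdft1 also occur in transcripts of other genes, such as Acat3 for Acat2. How the deposited counts divided such reads is not given in the sources used here, so the levels of these 4 genes are uncertain.

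Among the enzymes after squalene, Sqle had 33.0, 31.5 and 32.5 CPM in SUS libraries, 34.3, 31.6 and 25.1 CPM in RES libraries, and 27.0, 37.3 and 29.0 CPM in naive libraries. The SUS values lay inside the span of the other groups. Nsdhl, an X-linked gene whose enzyme helps remove the methyl groups at carbon C4, had 10.9, 9.47 and 13.6 CPM in SUS libraries, 4.53, 13.4 and 6.07 CPM in RES libraries, and 8.75, 9.02 and 8.28 CPM in naive libraries. All 3 SUS values lay above all 3 naive values, and the RES values spanned both groups. Ebp, the X-linked sterol isomerase gene, had 10.3, 4.63 and 13.6 CPM in SUS libraries, 6.10, 4.48 and 6.72 CPM in RES libraries, and 7.69, 8.11 and 6.99 CPM in naive libraries. All 3 RES values lay below all 3 naive values, while SUS replicate 2 was nearly as low as the lowest RES library. Both genes lay near the floor. Nsdhl averaged 1.65 times the floor, from 0.724 to 2.76 in single libraries, and Ebp 1.62 times, from 1.01 to 2.62. Tm7sf2, a sterol reductase gene, had 14.2, 10.5 and 12.9 CPM in SUS libraries, 10.5, 14.5 and 12.1 CPM in RES libraries, and 13.5, 11.7 and 15.9 CPM in naive libraries, with overlap between all groups. The other 6 ranged from 11.5 to 26.3 CPM for Cyp51, which removes the methyl group of lanosterol at carbon C14, 13.6 to 25.2 for the desaturase gene Sc5d, 14.5 to 24.3 for the reductase gene Dhcr7, 15.6 to 22.0 for the ketoreductase gene Hsd17b7, 32.4 to 55.3 for the methyl oxidase gene Msmo1 and 36.4 to 47.6 for Lss.

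Among the sensing genes, Srebf2, whose product chiefly drives cholesterol synthesis, had 83.0, 72.8 and 53.5 CPM in SUS libraries, 65.2, 106 and 40.2 CPM in RES libraries, and 56.3, 88.6 and 99.9 CPM in naive libraries. Srebf1, whose product chiefly drives fatty acid synthesis, had 86.0, 39.8 and 37.3 CPM in SUS libraries, 45.3, 97.1 and 24.0 CPM in RES libraries, and 42.1, 66.4 and 70.2 CPM in naive libraries. For both genes RES replicate 2 was the highest library and RES replicate 3 the lowest, so the RES group alone spanned all 9 values. The same 2 libraries held the highest and the lowest astrocyte marker sums, and the 5 highest libraries for Srebf1 were the 5 with the highest astrocyte sums. The same held for Mvk, a gene of little variation. The part of astrocyte RNA in these values was not tested. Insig1 had 32.2, 18.1 and 27.2 CPM in SUS libraries, 20.9, 24.3 and 12.4 CPM in RES libraries, and 22.5, 25.8 and 25.7 CPM in naive libraries. Insig2 had 18.9, 26.9 and 15.5 CPM in SUS libraries, 19.0, 24.3 and 18.5 CPM in RES libraries, and 16.0, 14.4 and 21.0 CPM in naive libraries. The groups overlapped for both INSIG genes, and Scap ranged from 23.5 to 35.2 CPM.

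Among the transport genes, Npc2 (ENSMUSG00000021242, chr12:84754562-84773152 on GRCm38) codes for the soluble lysosomal protein that hands cholesterol to the membrane protein Npc1. Npc2 had 57.0, 18.1 and 94.1 CPM in SUS libraries, 31.4, 12.8 and 18.5 CPM in RES libraries, and 35.7, 52.3 and 19.3 CPM in naive libraries. SUS replicates 3 and 1 were the 2 highest libraries, yet SUS replicate 2 lay below all 3 naive libraries and below 2 RES libraries. The 5 highest libraries for Npc2 were the 5 with the highest microglial, oligodendrocyte and oligodendrocyte precursor marker sums. Npc1 had 111, 56.6 and 94.4 CPM in SUS libraries, 62.1, 84.7 and 45.1 CPM in RES libraries, and 63.4, 86.2 and 79.3 CPM in naive libraries, with overlap between all groups. Npc1 overlaps Rmc1 on the opposite strand, and the strand setting of the counting is not given in the sources used here. Of all 30 genes, 16 overlap another annotated gene, among them Fdft1 with Ctsb and Srebf1 with Rai1.

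The exporter gene Abca1 (ENSMUSG00000015243, chr4:53030787-53159895) had 332, 145 and 414 CPM in SUS libraries, 197, 228 and 103 CPM in RES libraries, and 187, 288 and 198 CPM in naive libraries. SUS replicates 3 and 1 were its 2 highest libraries and RES replicate 3 its lowest. The partner exporter gene Abcg1 (ENSMUSG00000024030, chr17:31057675-31117988) had 63.6, 34.5 and 57.2 CPM in SUS libraries, 38.7, 36.5 and 19.8 CPM in RES libraries, and 35.8, 51.1 and 33.8 CPM in naive libraries. SUS replicates 1 and 3 lay above all RES libraries, and SUS replicate 2 lay inside the RES range.

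Nr1h2 (ENSMUSG00000060601, chr7:44549616-44553951), the gene of liver X receptor beta, had 36.4, 18.6 and 31.7 CPM in SUS libraries, 18.8, 22.0 and 15.6 CPM in RES libraries, and 21.3, 32.8 and 25.3 CPM in naive libraries. SUS replicates 1 and 3 were again above every RES library and SUS replicate 2 was not. Nr1h3, the gene of liver X receptor alpha, had 8.72, 6.72 and 6.13 CPM in SUS libraries, 8.72, 8.96 and 9.56 CPM in RES libraries, and 8.88, 8.71 and 9.01 CPM in naive libraries. SUS replicates 2 and 3 lay below every other library, and SUS replicate 1 reached the lower end of both other groups. Nr1h3 averaged only 1.66 times the floor, from 1.09 to 2.09 in single libraries. Soat1, which esterifies cholesterol for storage, had 72.2, 42.2 and 55.2 CPM in SUS libraries, 51.8, 68.1 and 31.3 CPM in RES libraries, and 43.9, 58.6 and 65.5 CPM in naive libraries, and the groups overlapped.

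**Figure D3:**
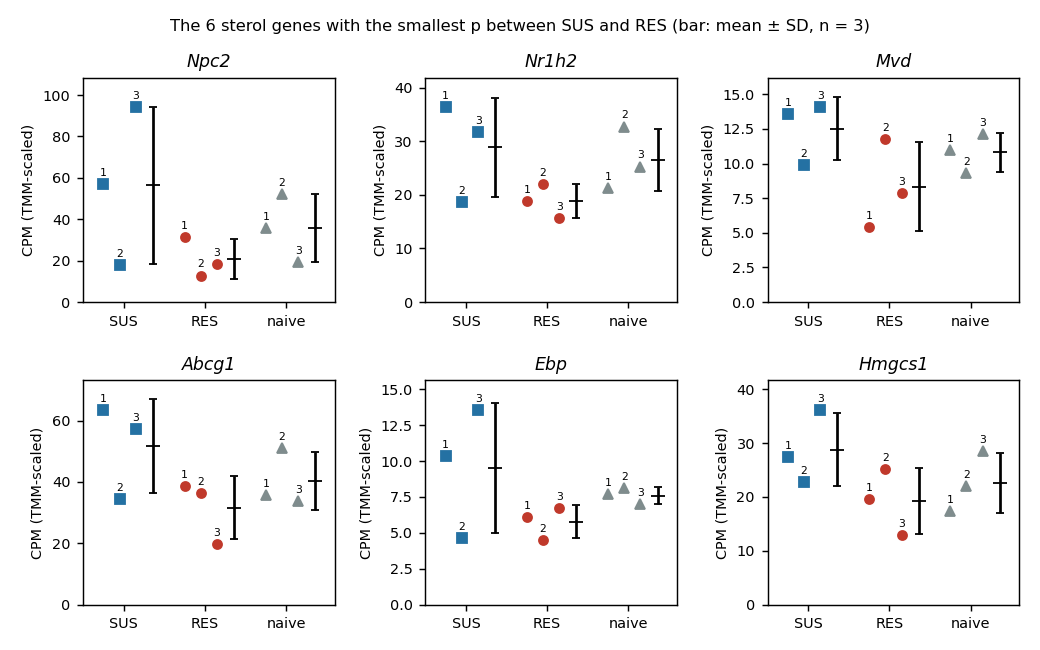
CPM of the 6 sterol genes with the smallest p between SUS and RES in each library, with the replicate number above each point and the mean ± SD of each group's 3 libraries beside the points. SUS replicates 1 and 3 lie above every RES library for each gene, and SUS replicate 2 lies within the RES range for all 6.

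The comparison of SUS with RES asks how the groups that took cocaine differ. None of the 30 sterol genes changed by edgeR's quasi-likelihood test with Benjamini-Hochberg adjustment over all 39210 genes, and neither did any other gene (0%), with a smallest adjusted p of 0.87. At an unadjusted p under 0.05 there were 4 of 30 sterol genes (13.3%), all higher in SUS, beside 5.68% of all genes and 4.01% in that direction. They were Npc2, Nr1h2, Abcg1 and Mvd. Npc2 averaged 56.4 ± 38.0 CPM in SUS libraries and 20.9 ± 9.52 CPM in RES libraries (SD, n = 3 each), a log2 fold change of 1.43 (SE 0.507). Its unadjusted p was 0.013 and its adjusted p 0.87. The log2 fold changes of the others were 0.62 for Nr1h2 (SE 0.282, unadjusted p = 0.0428), 0.71 for Abcg1 (SE 0.327, unadjusted p = 0.0456) and 0.60 for Mvd (SE 0.275, unadjusted p = 0.0461), each with an adjusted p of 0.87. Ebp at 0.70 and Hmgcs1 at 0.59 followed, with unadjusted p of 0.0529 and 0.06. Abca1 had a log2 fold change of 0.75 (SE 0.467).

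Over the whole list, 22 of the 30 fitted values were above 0 for SUS against RES, beside 51.2% of all genes, and the median log2 fold change was 0.20, beside 0.01 over all genes. The values ran from -0.34 for Nr1h3 to 1.43 for Npc2. The transport genes had a median of 0.62, with 6 of 7 above 0, and the early enzymes a median of 0.31, with 6 of 8. The late enzymes had a median of 0.13 and the sensing genes one of -0.01, where Srebf1 at -0.02 and Srebf2 at -0.01 lay next to 0. No sterol gene had SUS and RES libraries that did not overlap, beside 3.4% of all genes with SUS fully higher and 4.23% with SUS fully lower. With RES replicate 2 left out the list's median was 0.48, and with RES replicate 3 left out it was 0.05. The count of 4 genes at an unadjusted p under 0.05 moved as single libraries were dropped, and so did the share of all genes. The fit lacking SUS replicate 3 had 0 sterol genes, beside 2.91% of all genes. The fit lacking SUS replicate 2 had 9, beside 11.6%. Dropping RES replicate 2 gave 7, beside 4.05%, and dropping RES replicate 1 gave 2, beside 6.38%. The count was 3 when naive replicate 2 was dropped, beside 5.07%. It was 1 for RES replicate 3 (beside 2.79%), SUS replicate 1 (5.43%), naive replicate 1 (4.51%) and naive replicate 3 (4.96%).

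**Figure D4:**
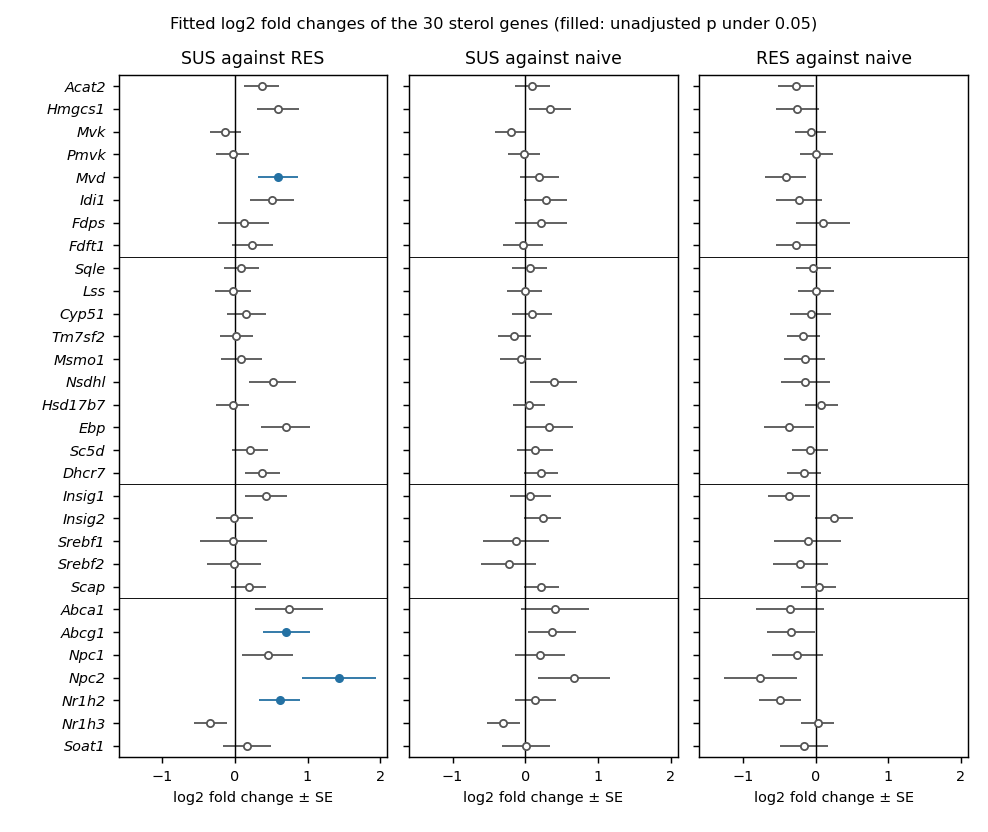
Fitted log2 fold change ± SE of each sterol gene for SUS against RES, SUS against naive and RES against naive, in the same order by role as the plot of levels; filled points have an unadjusted p under 0.05. The filled points are Mvd, Abcg1, Npc2 and Nr1h2 for SUS against RES, and Npc2 has the largest value of these genes at 1.43.

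Markers of some other cell types had fitted values in the same direction. All 14 microglial markers had higher fitted values in SUS than in RES, with a median log2 fold change of 2.26. So did 10 of 10 oligodendrocyte markers (median 1.14), 6 of 6 oligodendrocyte precursor markers (median 0.33) and 8 of 8 endothelial and mural markers (median 0.39). Other lists did not share this direction. Only 2 of 10 astrocyte markers (median -0.28) and 3 of 12 medium spiny neuron markers (median -0.1) were higher in SUS. Cholinergic markers were higher for 4 of 8 (median 0.02) and red blood cell markers for 3 of 6 (median 0.15). None of these passed the adjusted test. With the mean log2 CPM of the 14 microglial markers as a covariate, a fit added after seeing the data, the log2 fold change for SUS against RES was 0.22 for Npc2 (unadjusted p = 0.474), 0.34 for Nr1h2 (unadjusted p = 0.281), 0.32 for Abcg1 (unadjusted p = 0.33) and 0.16 for Ebp. Mvd at 0.70 (unadjusted p = 0.0475) and Hmgcs1 at 0.57 kept values near those without the covariate, and the median of the list was 0.21. Mvd was the 1 sterol gene of 30 with an unadjusted p under 0.05 in this fit, beside 1.83% of all genes. Without RES replicate 3 and SUS replicate 3, also added after seeing the data, the log2 fold change of Npc2 was 0.77 (unadjusted p = 0.186) and the median of the list 0.07.

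**Figure D5:**
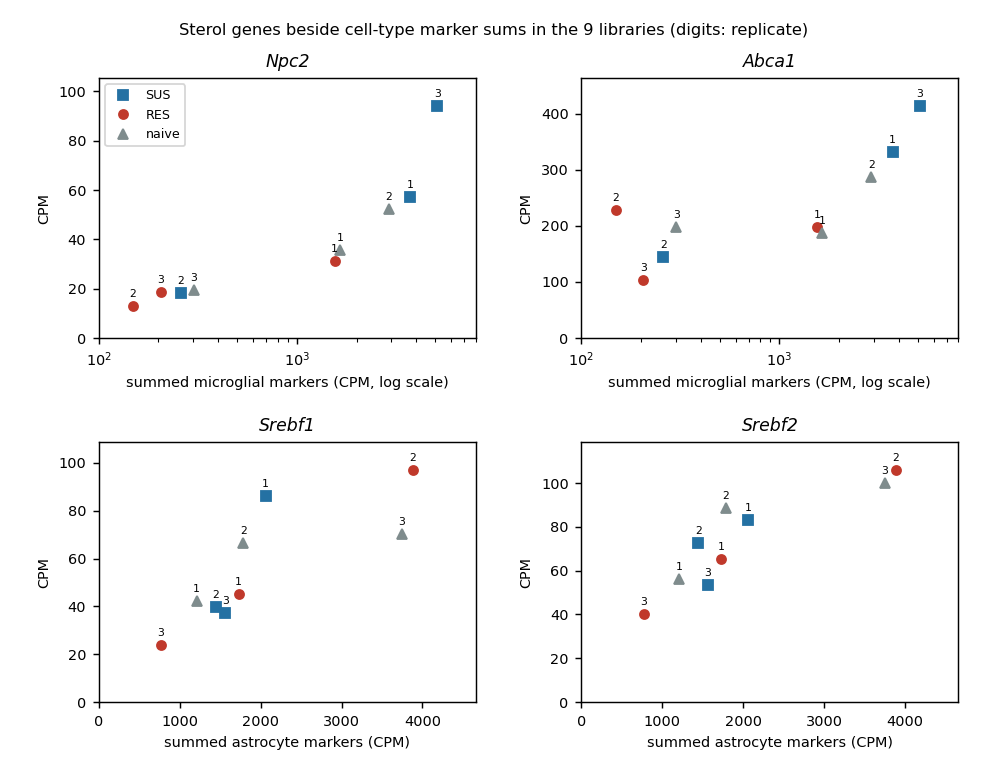
CPM of Npc2 and Abca1 against the summed CPM of 14 microglial markers (log scale), and of Srebf1 and Srebf2 against the summed CPM of 10 astrocyte markers, 1 point per library with its replicate number. Npc2 is highest in SUS replicate 3, at 94.1 CPM with 5112 CPM of microglial markers, and lowest in RES replicate 2, at 12.8 CPM with 148.8 CPM of them.

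The comparisons with naive mice ask what changed after cocaine taking, and both use the same 3 naive libraries. For SUS against naive, 0 of 30 sterol genes passed the adjusted test (0% of all genes did) and 0 had an unadjusted p under 0.05, beside 3.12% of all genes. Of the fitted values, 21 were above 0, beside 52.2% of all genes, and the median log2 fold change was 0.12, beside 0.02. The smallest p belonged to Npc2, which averaged 56.4 ± 38.0 CPM in SUS libraries and 35.8 ± 16.5 CPM in naive libraries (SD, n = 3 each). Its log2 fold change was 0.67 (SE 0.498, unadjusted p = 0.197). That value was 0.09 without SUS replicate 3, 1.09 without SUS replicate 2 (unadjusted p = 0.0155), 1.03 without naive replicate 2 and 0.36 without naive replicate 3. Next were Nr1h3 at -0.30 (SE 0.226, unadjusted p = 0.2), Nsdhl at 0.39 (SE 0.32, unadjusted p = 0.246) and Hmgcs1 at 0.34 (SE 0.288, unadjusted p = 0.252). Leaving out SUS replicate 2 gave 2 sterol genes with an unadjusted p under 0.05, beside 8.84% of all genes. With all libraries, Nsdhl alone had groups that did not overlap, with SUS higher, at a mean level of 1.65 times the floor. That is 3.33% of the list, beside 3.85% of all genes. All 14 microglial markers had fitted values above 0 here too, with a median of 0.86, as did 10 of 10 oligodendrocyte markers, with a median of 0.46, and 7 of 8 endothelial and mural markers, with a median of 0.19. Astrocyte markers were above 0 for 1 of 10 (median -0.29) and medium spiny neuron markers for 5 of 12 (median -0.14). The counts were 3 of 6 for oligodendrocyte precursors (median -0.02), 5 of 8 for cholinergic markers (median 0.04) and 4 of 6 for red blood cells (median 0.12). None of them passed the adjusted test. With the microglial covariate the value of Npc2 was 0.23 (unadjusted p = 0.381) and the median of the list 0.09. The part of the other cell types in the values of the sterol genes was not tested. The microglial covariate cannot separate microglia from the oligodendrocyte lineage, since the same 5 libraries had the highest marker sums for each.

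For RES against naive, 0 of 30 sterol genes passed the adjusted test (0% of all genes did) and 0 had an unadjusted p under 0.05, beside 0.921% of all genes. Here 23 of the 30 fitted values lay below 0, beside 52.6% of all genes, and the median log2 fold change was -0.16, beside -0.02. The smallest p belonged to Nr1h2, at 18.8 ± 3.17 CPM in RES libraries and 26.5 ± 5.80 CPM in naive libraries (SD, n = 3 each). Its log2 fold change was -0.49 (SE 0.285, unadjusted p = 0.108). Npc2 at -0.76 (SE 0.506, unadjusted p = 0.155), Mvd at -0.41 (SE 0.28, unadjusted p = 0.169) and Insig1 at -0.37 (SE 0.286, unadjusted p = 0.218) followed. Ebp, at -0.37 (SE 0.345, unadjusted p = 0.301) and a mean level of 1.62 times the floor, alone had groups that did not overlap, with RES lower. That is 3.33% of the list, beside 2.81% of all genes. The median was -0.40 without RES replicate 2, -0.02 without RES replicate 3 and -0.09 without RES replicate 1. It was -0.06 without naive replicate 3 and -0.28 without naive replicate 1, so its size rested on single libraries of both groups. Sterol genes at an unadjusted p under 0.05 numbered 3 without RES replicate 2, beside 1.10% of all genes, and 1 with limma-voom, beside 4.26%. Leaving out any other single library did not change their number. Markers of several cell types had fitted values mostly below 0, namely 14 of 14 for microglia (median -1.39), 10 of 10 for oligodendrocytes (median -0.59), 6 of 6 for their precursors (median -0.41) and 7 of 8 for endothelial and mural cells (median -0.15). Above 0 were 3 of 10 astrocyte markers (median -0.07) and 6 of 12 medium spiny neuron markers (median -0.01). So were 5 of 8 cholinergic markers (median 0.12) and 3 of 6 red blood cell markers (median 0.35). With the microglial covariate the value of Npc2 was 0.01 (unadjusted p = 0.983).

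For all 6 cocaine libraries against naive, 0 of 30 sterol genes passed the adjusted test (0% of all genes did) and 0 had an unadjusted p under 0.05, beside 1.38% of all genes. The fitted values divided evenly, with 16 above 0, beside 51.4% of all genes, and the median was 0.01, the same as over all genes. The smallest p belonged to Insig2 at 0.25 (SE 0.217, unadjusted p = 0.277), Tm7sf2 at -0.16 (SE 0.187, unadjusted p = 0.416), Mvk at -0.13 (SE 0.175, unadjusted p = 0.459) and Srebf2 at -0.22 (SE 0.311, unadjusted p = 0.491). The median standard error of a sterol gene's log2 fold change was 0.248 here, 0.281 for SUS against RES, 0.279 for SUS against naive and 0.282 for RES against naive, so changes of the size of most fitted values were not detectable with these libraries.

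A further 43 genes of sterol and lipid supply were counted beside the 30, and 42 of them were tested. None passed the adjusted test in any comparison. For SUS against RES, 30 of the 42 fitted values were above 0, beside 51.2% of all genes, with a median of 0.17, and 2 genes (4.76%) had an unadjusted p under 0.05, which is below the 5.68% of all genes. The pair were Lipa, the lysosomal acid lipase that frees cholesterol from its esters, at 0.96 (SE 0.373, unadjusted p = 0.0211), and Mylip, a ubiquitin ligase that liver X receptors induce and that removes lipoprotein receptors, at 1.75 (SE 0.733, unadjusted p = 0.0305). Mylip had 151, 23.1 and 205 CPM in SUS libraries, 72.5, 21.8 and 18.5 CPM in RES libraries, and 81.2, 139 and 23.6 CPM in naive libraries. Lipa had 22.5, 10.7 and 29.8 CPM in SUS libraries, 15.9, 7.90 and 8.53 CPM in RES libraries, and 13.5, 21.9 and 11.1 CPM in naive libraries. For both genes the SUS group held the 2 highest libraries and its replicate 2 lay among the low ones, as for Npc2. Scd1, a fatty acid desaturase gene, at 0.50 and Rnf139, a ubiquitin ligase gene of the endoplasmic reticulum, at 0.59 followed, with unadjusted p of 0.0614 and 0.0707. For SUS against naive 23 of the 42 were above 0, beside 52.2% of all genes. For RES against naive 36 were below 0, beside 52.6%, with a median of -0.16, and for cocaine against naive 27 were below 0, beside 48.6%. Cyp46a1, the neuronal enzyme that turns cholesterol into an oxysterol able to leave the brain, averaged 8.81 times the floor. It had 48.1, 74.5 and 17.1 CPM in SUS libraries, 56.1, 77.7 and 32.8 CPM in RES libraries, and 50.1, 90.5 and 62.9 CPM in naive libraries, and the groups overlapped.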

How the data were processed

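The authors deposited a table of raw counts per Ensembl gene for 9 libraries, with no scaling. The submitters' processing notes list STAR 2.5.2b, HTSeq, FastQC, DESeq2 and DESeq, with GRCm38 as the build. The annotation release and strand setting are not given in the sources used here. Groups follow the titles. Symbols, positions and exon lengths came from GENCODE mouse release 21, which held 52489 of the 52636 IDs. After filterByExpr and TMM scaling, counts were tested by the quasi-likelihood method of edgeR 4.0.16 (R 4.3.3), with Benjamini-Hochberg adjustment at 0.05 over 39210 genes. A model of 3 groups gave the pairwise comparisons, and a model of 2 groups gave cocaine against naive. Each standard error is the log2 fold change divided by the root of its F statistic. Alternatives were other scalings and filters, DESeq2 1.42.0, limma-voom (limma 3.58.1), a replicate block, single libraries left out, and the 2 fits added after seeing the data. The procedure was tested on simulated data. The members and lists were chosen with earlier results of these data known. Values per library were given for 12 preset genes and for up to 4 genes of smallest p per comparison, and beyond these for Ebp, chosen after its values were seen.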

Additional observations from a re-analysis of the deposited data

How the results depend on the processing

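No sterol gene and no other gene passed the adjusted test under any alternative tried, DESeq2 and limma-voom included; at an unadjusted p under 0.05 DESeq2 gave 1885 genes and limma-voom 3367 for SUS against RES, beside 2227 by edgeR. Of the alternative values, 2 medians moved by more than the spread between libraries and 2 fold changes of single genes reversed. The median for cocaine against naive, 0.01, changed sign within that spread, at -0.08 with limma-voom and -0.07 without SUS replicate 3. Without RES replicate 2 the list's median was -0.40 for RES against naive and 0.48 for SUS against RES. Leaving out single libraries gave medians of -0.40 to -0.02 for RES against naive, 0.04 to 0.19 for SUS against naive, 0.05 to 0.48 for SUS against RES and -0.07 to 0.06 for cocaine against naive. Npc2 reversed for RES against naive with the microglial covariate (0.01), and Srebf2 for cocaine against naive without RES replicate 3 and SUS replicate 3 (0.00; its range with libraries left out was -0.43 to 0.00). Changes in size without a change of sign are not in this count of single genes. With the microglial covariate, for SUS against RES, Npc2 fell from 1.43 to 0.22 and Ebp from 0.70 to 0.16. For SUS against naive, Npc2 fell from 0.67 to 0.09 without SUS replicate 3. Other values rose, such as Npc2 to 1.85 for SUS against RES without SUS replicate 2. The causes were not tested. Deviations from the group mean correlated at -0.17 to 0.172 between same-numbered libraries of different groups, and at -0.314 to 0.299 between differently numbered ones. With 3 libraries per group such values cannot decide whether the numbers pair the samples. With the replicate block 0 sterol genes passed. The list's median was then 0.22 for SUS against RES, 0.11 for SUS against naive, -0.19 for RES against naive and -0.01 for cocaine against naive. Sterol genes at an unadjusted p under 0.05 for SUS against RES numbered 2 of 30 with DESeq2, beside 4.81% of all genes, and 9 with limma-voom, beside 8.59%. They numbered 2 with the block, beside 5.09%, and 1 with upper-quartile scaling, beside 5.53%. That scaling gave a median over all genes of -0.09 for SUS against RES, beside 0.01 with TMM.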

Other observations

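Among the other lipid genes, 3 examples picked after their values were seen, which are not the highest of that list, are given here. Clu, the gene of the lipoprotein clusterin, averaged 20.3 times the floor and was highest in RES replicate 2 at 250.4 CPM and naive replicate 3 at 236.7 CPM, the 2 libraries with the highest astrocyte marker sums. Scd2, a fatty acid desaturase gene, averaged 18.4 times the floor and was highest in SUS replicate 1 at 410.9 CPM, the library with the highest oligodendrocyte marker sum at 2246 CPM. Lrp1, a lipoprotein receptor gene, averaged 17.5 times the floor and was lowest in RES replicate 3 at 236.4 CPM. These are values of single libraries and were not compared by a test of their own.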
